A study of Mus musculus with 3 samples.

Results

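The receptors for monoamines and the muscarinic receptors for acetylcholine were examined in RNA-seq of mouse hippocampus. The genes were taken by name among the protein-coding genes of the deposited table: serotonin receptors (Htr1 to Htr7), dopamine receptors (Drd1 to Drd5), adrenergic receptors (Adra1, Adra2 and Adrb) and muscarinic receptors (Chrm1 to Chrm5). The rule found 33 genes of 22046 protein-coding genes and of 54532 genes in all. They are 14 serotonin, 5 dopamine, 9 adrenergic and 5 muscarinic receptor genes. Hippocampi of C57BL/6 mice aged 10 months were compared in 3 genotypes: wild type (WT), the tau transgenic line PS19, and PS19 with 1 mutant Zbp1 allele by its label (PS19 Zbp1+/-). The transgene of PS19 is a human tau under the mouse Prnp promoter, and the Zbp1 mutants carry it too. The product of Zbp1 binds Z-form nucleic acids. Each genotype was sequenced as 1 library, and whether a library pools animals is not given in the sources used here. No difference below therefore has a replicate check, and the 3 comparisons share libraries.

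Serotonin, dopamine and noradrenaline reach the hippocampus along axons of brainstem neurons, and acetylcholine along axons of the basal forebrain. The cells that make these transmitters lie outside the hippocampus, while their receptors are made by hippocampal neurons and glia. All of these receptors couple to G proteins except the Htr3 subunits, which form a cation channel. The Gq class acts through phospholipase C, the Gi/o class lowers cyclic AMP and opens potassium channels, and the Gs class raises cyclic AMP. In bulk tissue, fewer cells of a type and less RNA per cell cannot be told apart.

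Total reads, recovered from the deposited FPKM (reads per gene length and scaled library size), were 16746085 for WT, 16400328 for PS19 and 17109734 for PS19 Zbp1+/-. The last library stood apart. It had 882 genes with a single read, against 2467 in WT and 2465 in PS19. It had 0 reads of Xist and 711 of the Y-linked Ddx3y, against 11062 and 13350 of Xist and 0 of Ddx3y in WT and PS19. Choroid plexus markers were nearly lost in it, with a summed FPKM of 27.3 over 13 genes against 3469 in WT and 2205 in PS19. Genotype cannot be told apart from these differences. The reads of Zbp1 itself numbered 5 for WT, 91 for PS19 and 0 for the library labelled PS19 Zbp1+/-, a count that does not show a retained allele. The name PS19 Zbp1+/- stands below for the library so labelled. Hippocampal markers were present in every library: Fibcd1 of CA1 at FPKM values of 37.0, 27.0 and 111, and C1ql2 of the dentate gyrus at 51.0, 34.0 and 37.5.

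A receptor counted as expressed at an FPKM of at least 1. By this measure 23 of 33 receptors, or 69.7%, were expressed in WT. PS19 had 22 and PS19 Zbp1+/- 24. Of all protein-coding genes, 55.0%, 56.8% and 53.8% reached that level in these libraries. The same 22 receptors were expressed in every library, 2 (Drd1 and Adra1a) in some, and 9 in none, among them Htr1f, Adra2b, Htr1d, Adrb3, Htr2b, Drd4, Drd3 and Htr3b. All 5 muscarinic receptors were expressed in each library, as were 10 of the 14 serotonin receptors. Of the dopamine receptors 3 were expressed in WT and PS19 Zbp1+/- and 2 in PS19. Of the adrenergic receptors 6 were expressed in PS19 Zbp1+/- and 5 in each of the others.

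**Figure D1:**
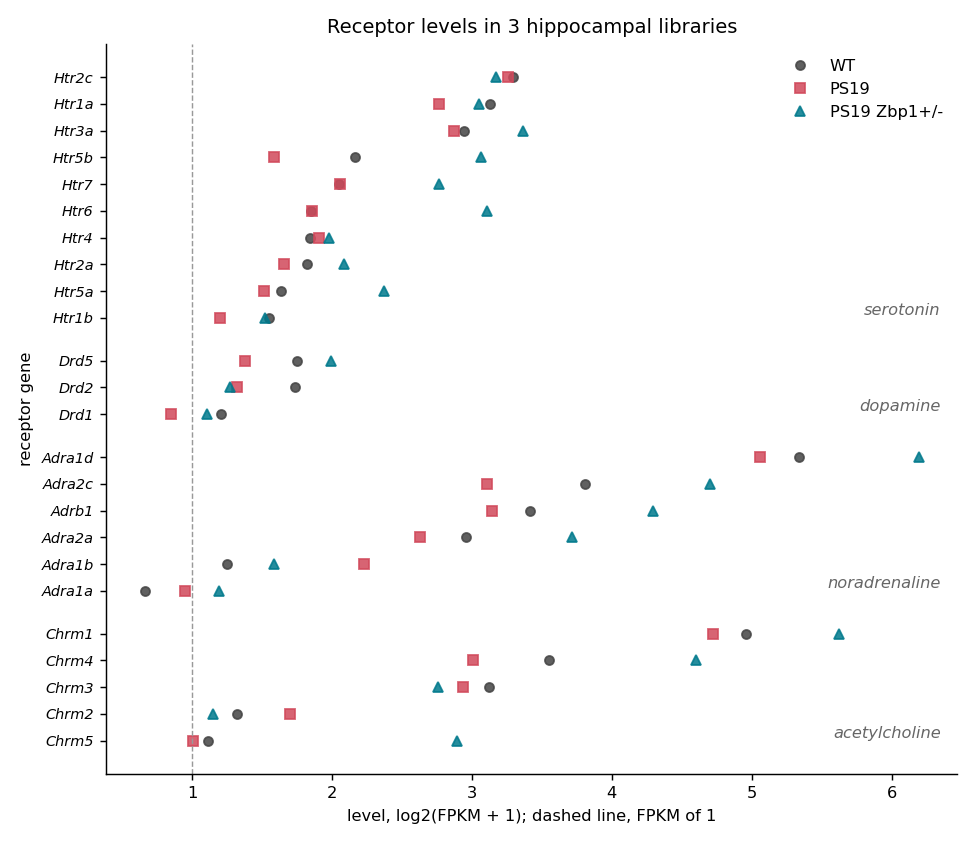
Level of each of the 24 receptor genes expressed in at least 1 library as log2(FPKM + 1) on the horizontal axis, 1 row per gene grouped by transmitter, with 1 symbol per library. Adra1d and Chrm1 lead in all 3 libraries, and 22 genes lie right of the dashed line at an FPKM of 1 in all of them.

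Adra1d, an adrenergic receptor of the Gq class, had the highest level per length in each library, and Chrm1, the main Gq-coupled muscarinic receptor of forebrain pyramidal neurons, the second highest. Adra1d stood above 90.5% of expressed protein-coding genes of WT, 89.6% of those of PS19 and 95.1% of those of PS19 Zbp1+/-. Chrm1 stood above 87.2%, 86.1% and 91.9%. Over all genes of the table FPKM summed to 277879 for WT, 254221 for PS19 and 309911 for PS19 Zbp1+/-. Summed over the 33 receptors, FPKM came to 171 for WT, 143 for PS19 and 281 for PS19 Zbp1+/-. Adrenergic receptors made up 41.9%, 41.3% and 47.1% of that sum, muscarinic receptors 29.9%, 29.7% and 30.3%, serotonin receptors 24.6%, 26.2% and 20.7%, and dopamine receptors 3.52%, 2.80% and 1.97%. Adra1d alone held 23.0%, 22.6% and 25.7%.

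**Figure D2:**
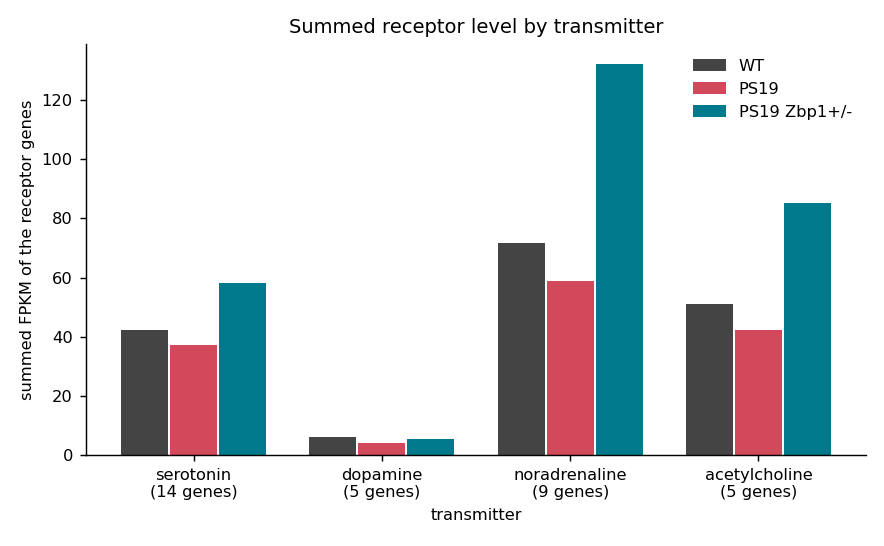
Summed FPKM of the receptor genes of each transmitter (vertical axis, from 0), with 1 bar per library. The adrenergic sum was 71.8 for WT, 58.9 for PS19 and 132 for PS19 Zbp1+/-, and the dopamine sum was 6.02, 3.99 and 5.55.

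Libraries were compared by the difference of log2(FPKM + 1), a scale that understates changes of weak genes. Protein-coding genes entered a comparison if one of its libraries had an FPKM of 1 or more. A gene was called higher or lower at 1 log2 unit or more. Between PS19 and WT, 23 receptors passed the filter and none was called in either direction, where 2.2% of 12703 genes were called higher and 0.291% lower. By sign 18 of the 23 were lower in PS19 and 5 higher, with a median of -0.24 against -0.03 over all genes tested. In PS19 Zbp1+/- against PS19, 24 receptors passed, 8 were called higher and 0 lower, or 33.3% higher. The background was 2.0% of 12772 genes higher and 5.16% lower. By sign 19 were higher and 5 lower, with a median of 0.56 against 0.04 over all genes. Against WT, 24 receptors passed in PS19 Zbp1+/- and 3 were called higher and 0 lower, or 12.5% higher, where 1.07% of 12436 genes were called higher and 2.28% lower. The median was 0.47 against 0.01 over all genes, and 17 of the 24 were higher by sign.

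The scaling bears on these counts. Scaling by total reads in place of the deposited factors left 5 receptors called in PS19 Zbp1+/- against PS19 (Adra2c, Chrm4, Chrm5, Htr5b and Htr6), where 1.15% of 12779 genes were called higher. It moved the median of all genes by -0.16. Rescaling to TPM, which moved that median by -0.29, left the same 5 higher, beside 1.58% of 14753 genes, and called Adra1b lower, beside 13.6%. The minimum of 1 and the added 1 were kept on TPM values, which were larger than FPKM here, so weaker genes also passed. The share of higher genes among all called genes was 27.9% as deposited, 14.6% by total reads and 10.4% by TPM. Against WT the corresponding shares were 32.0%, 17.3% and 18.5%, and 2 receptors (Chrm5 and Htr6) stayed called under either scaling.

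Reads give a second view, as a ratio of reads over scaled library sizes. Its 95% interval is exact (Clopper-Pearson) and covers counting error only. No molecular identifiers are named, so reads may repeat a molecule. Between PS19 and WT the interval lay below 1 for 13 of the 23 receptors and above 1 for 2, against 32.7% and 28.3% of all genes tested. For PS19 Zbp1+/- over PS19 it lay above 1 for 17 of 24 and below 1 for 3, against 39.0% and 32.6%. For PS19 Zbp1+/- over WT the counts were 15 and 3 of 24, against 35.3% and 31.3%.

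**Figure D3:**
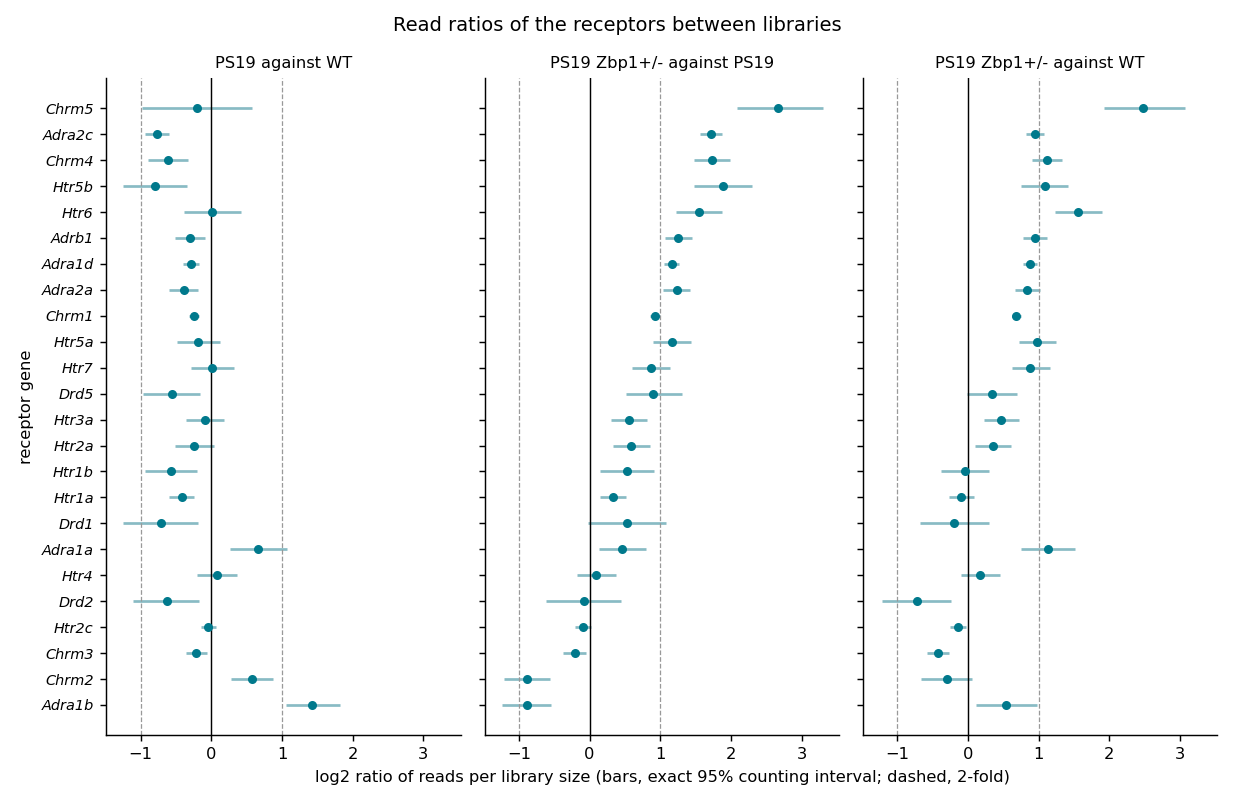
Ratio of reads per library size on a log2 axis, 1 panel per comparison, for the 24 receptors expressed in PS19 or PS19 Zbp1+/-, with exact 95% counting intervals as bars. Chrm5 has the highest ratio in the middle panel, 6.36, and Adra1b the highest in the left panel, 2.69.

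Promoter sequence was compared because 8 receptors were called higher together. RefSeq promoter windows on GRCm38.p6, here the 250 bases before the annotated start, were found for 25 of the 33 receptors, and not, among others, for Adra1a, Adra1d, Adrb3, Chrm1, Htr3a, Htr4 or Htr5b. For some the RefSeq start lay inside the table's gene, by 247 bases for Adra2c, 147 for Htr7, 142 for Drd5 and 8195 for Drd3. Such windows lie in part or in full within the table's gene. The windows of 3 receptors higher in PS19 Zbp1+/- (Chrm4, Htr6 and Adrb1) are set beside those of Chrm2, whose read ratio lay below 1 there, and Htr2c, whose interval included 1. Capitals mark the GC box GGGCGG, bound by Sp1-family factors, on either strand, where overlapping matches run together.
Chrm4 (chr2:91921939-91922188, plus strand): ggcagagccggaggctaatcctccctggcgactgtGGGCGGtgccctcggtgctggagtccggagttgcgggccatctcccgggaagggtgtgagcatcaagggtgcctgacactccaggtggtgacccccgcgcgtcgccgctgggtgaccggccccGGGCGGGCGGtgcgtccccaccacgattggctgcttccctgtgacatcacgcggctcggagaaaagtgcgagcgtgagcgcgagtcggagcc
Htr6 (chr4:139075571-139075820, minus strand): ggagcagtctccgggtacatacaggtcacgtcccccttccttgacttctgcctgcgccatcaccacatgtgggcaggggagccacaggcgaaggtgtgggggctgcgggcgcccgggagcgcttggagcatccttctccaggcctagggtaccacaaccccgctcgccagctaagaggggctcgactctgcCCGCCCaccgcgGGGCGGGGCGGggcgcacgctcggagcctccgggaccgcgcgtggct
Adrb1 (chr19:56721867-56722116, plus strand): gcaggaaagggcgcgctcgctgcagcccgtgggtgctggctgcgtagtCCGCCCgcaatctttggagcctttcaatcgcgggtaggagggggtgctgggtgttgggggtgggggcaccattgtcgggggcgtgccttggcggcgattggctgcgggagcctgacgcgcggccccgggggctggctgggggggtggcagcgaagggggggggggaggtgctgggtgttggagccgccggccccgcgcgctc
Chrm2 (chr6:36387834-36388083, plus strand): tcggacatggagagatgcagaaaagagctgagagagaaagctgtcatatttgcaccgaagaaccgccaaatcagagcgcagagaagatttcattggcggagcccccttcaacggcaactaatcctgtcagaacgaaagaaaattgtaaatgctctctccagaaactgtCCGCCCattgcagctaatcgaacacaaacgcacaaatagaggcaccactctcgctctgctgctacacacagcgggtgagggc
Htr2c (chrX:146962263-146962512, plus strand): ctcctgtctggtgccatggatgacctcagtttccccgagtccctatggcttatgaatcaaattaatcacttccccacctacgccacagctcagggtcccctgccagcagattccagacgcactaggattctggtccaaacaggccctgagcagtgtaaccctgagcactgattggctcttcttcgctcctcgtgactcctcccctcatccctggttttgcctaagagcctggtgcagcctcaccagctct
The windows of Chrm4 and Htr6 each held 3 GC boxes, those of Adrb1 and Chrm2 each 1, and that of Htr2c 0. CpG sites numbered 26, 23 and 24 in the first 3 windows, and 12 and 5 in the last pair. A GC box stood in 12 of the 25 windows, or 48%. Of the 6 higher receptors with a window 4 held a GC box, and of the 12 others that passed the filter 5 did. Over all 32851 RefSeq windows the share was 32.7%. Those windows, unlike the receptors', were not limited to 1 per gene or to protein-coding genes. The median number of CpG sites was 22.5 in those 6, 11.0 in the 12 and 6.0 in all windows. The exceptions among the 6 were Adra2c and Chrm5, with 6 and 2 CpG sites. Among the 12 others the number ran from 3 to 41. The 2 most CpG-rich of the 25 windows were theirs, Htr7 with 41 sites and Drd5 with 35. Adra2b, expressed in no library, had 23. The 5 windows shown were picked by hand and do not stand for their groups. The TATA box core TATAAA was found on either strand in the window of Adra2a alone of the 25, against 12.4% of all windows, and the cAMP response element TGACGTCA in none, against 1.55%. A match of letters is a description and no site.

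Among the muscarinic receptors, Chrm5, a Gq-coupled receptor known from dopamine neurons, differed most. Its FPKM was 1.16 for WT, 1.01 for PS19 and 6.44 for PS19 Zbp1+/-, from 32, 28 and 163 reads. PS19 Zbp1+/- stood apart from both other libraries, which lay close together. The read ratio was 6.36 over PS19 (interval 4.24 to 9.87) and 5.55 over WT (3.78 to 8.39), and 0.873 for PS19 over WT (0.507 to 1.497).

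Chrm4, the Gi/o-coupled receptor of striatal and hippocampal neurons, had FPKM values of 10.7 for WT, 7.03 for PS19 and 23.3 for PS19 Zbp1+/-. PS19 was lowest and PS19 Zbp1+/- highest. The read ratios were 0.657 for PS19 over WT (0.539 to 0.798), 3.31 for PS19 Zbp1+/- over PS19 (2.78 to 3.95) and 2.17 over WT (1.87 to 2.53).

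Chrm1 followed the same order at FPKM values of 30.1, 25.4 and 48.4. Its differences of 0.90 from PS19 and 0.67 from WT in PS19 Zbp1+/- stayed under 1 log2 unit. From 3371, 2851 and 4969 reads the ratios were 0.844 for PS19 over WT (0.803 to 0.887), and PS19 Zbp1+/- stood at 1.90 times PS19 (1.82 to 1.99).

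Chrm3 and Chrm2 had their lowest values in PS19 Zbp1+/-. Chrm3, Gq-coupled like Chrm1, had FPKM values of 7.69 for WT, 6.65 for PS19 and 5.76 for PS19 Zbp1+/-, lowest in the last. Chrm2, the Gi/o-coupled receptor of the heart and of cholinergic and interneuron terminals, had 1.503, 2.25 and 1.22, highest in PS19. Its read ratios were 1.49 for PS19 over WT (1.22 to 1.84), and PS19 Zbp1+/- stood at 0.544 times PS19 (0.432 to 0.682).

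Among the adrenergic receptors, Adra1d had FPKM values of 39.3 for WT, 32.3 for PS19 and 72.2 for PS19 Zbp1+/-. It ranked first in every library and was highest in PS19 Zbp1+/-, with read ratios of 2.24 over PS19 (2.08 to 2.41) and 1.83 over WT (1.71 to 1.97). Adra2c, a Gi/o-coupled receptor that limits noradrenaline release, had 13.0, 7.61 and 25.1. It showed the lowest difference of the 23 receptors between PS19 and WT, -0.70, and a read ratio of 3.29 for PS19 Zbp1+/- over PS19 (2.96 to 3.67).

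Adra2a, its close relative, had FPKM values of 6.77, 5.17 and 12.2. Adrb1, the main Gs-coupled beta receptor of forebrain neurons, had 9.66, 7.83 and 18.6. Both were lowest in PS19 and highest in PS19 Zbp1+/-, by read ratios over PS19 of 2.35 (2.06 to 2.68) and 2.38 (2.09 to 2.72).

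Adra1b, Gq-coupled and abundant in thalamus, ran against Adra1d, Adra2a and Adra2c. Its FPKM was 1.37 for WT, 3.69 for PS19 and 1.999 for PS19 Zbp1+/-, highest in PS19. The read ratio was 2.69 for PS19 over WT (2.08 to 3.53), and PS19 Zbp1+/- stood at 0.541 times PS19 (0.425 to 0.685). On the log2(FPKM + 1) scale the first difference was 0.99, just under the threshold, and it was 1.16 with a pseudocount of 0.5 and 1.37 with 0.1.

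Adra1a, the remaining Gq-coupled subtype, had 0.584, 0.928 and 1.28, and reached an FPKM of 1 in PS19 Zbp1+/- alone. Adrb3, the beta receptor of fat tissue, had 7, 11 and 30 reads, and Adra2b, an alpha receptor best known in thalamus and vessels, had 13, 19 and 4. The low counts of PS19 Zbp1+/- limit what can be read from Adra2b.

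Among the serotonin receptors, 2 of the 10 that passed were called higher in PS19 Zbp1+/- than in PS19. Htr6, a Gs-coupled receptor found almost only in brain, had FPKM values of 2.60 for WT, 2.62 for PS19 and 7.64 for PS19 Zbp1+/-. WT and PS19 were alike within counting error, with a ratio of 1.01 (0.762 to 1.33), and PS19 Zbp1+/- was 2.92-fold over PS19 (2.32 to 3.68). Htr5b, a receptor of rodents whose human copy is not functional, had 3.47, 2.003 and 7.38. It was lowest in PS19 and highest in PS19 Zbp1+/-, with a ratio of 3.68 (2.79 to 4.91).

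Htr5a, a Gi/o-coupled receptor of the same family, had FPKM values of 2.11, 1.86 and 4.17 and a difference of 0.85 between PS19 Zbp1+/- and PS19. Htr7, a Gs-coupled receptor, had 3.14, 3.17 and 5.80 and a difference of 0.71. In both, WT and PS19 lay close together and PS19 Zbp1+/- above them. Htr3a, the channel subunit carried by a class of hippocampal interneurons, had 6.68, 6.30 and 9.28, and Htr2a, a Gq-coupled receptor of cortical pyramidal neurons, 2.53, 2.15 and 3.23.

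Htr1a, the Gi/o-coupled inhibitory receptor that is dense in hippocampus, had FPKM values of 7.76 for WT, 5.81 for PS19 and 7.28 for PS19 Zbp1+/-. It was lower in PS19 by a read ratio of 0.749 (0.661 to 0.847), while PS19 Zbp1+/- and WT overlapped within counting error at 0.939 (0.833 to 1.06). Htr1b, the inhibitory receptor of axon terminals, followed the same order at 1.93, 1.30 and 1.87. Htr4, a Gs-coupled receptor, was level at 2.59 for WT, 2.745 for PS19 and 2.93 for PS19 Zbp1+/-, with all of its 3 read ratio intervals including 1.

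Htr2c, a Gq-coupled receptor found in neurons and at high density in choroid plexus, varied little. Its FPKM was 8.79 for WT, 8.55 for PS19 and 8.02 for PS19 Zbp1+/-, from 1415, 1378 and 1184 reads. The ratio of PS19 Zbp1+/- over PS19 was 0.939 (0.868 to 1.02) and over WT 0.912 (0.844 to 0.986). In the same libraries Ttr, the most abundant choroid plexus marker, went from FPKM values of 3036 and 1842 to 7.05, and Enpp2 from 286 and 257 to 15.0. All 13 choroid plexus markers were called lower in PS19 Zbp1+/- against either library, and Slc4a5 had 0 reads there.

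The remaining serotonin receptors were under an FPKM of 1 in all libraries. Htr1f, an inhibitory receptor, had 14, 22 and 17 reads, and Htr1d, another, 10, 8 and 6. Htr2b, a receptor of heart valves and gut, had 3, 5 and 0 reads, and Htr3b, the second channel subunit, 0, 1 and 0. A count of 0 in PS19 Zbp1+/- allows an FPKM of up to 0.0889 for Htr2b and 0.0786 for Htr3b, so no difference was detectable at this depth.

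The dopamine receptors were weak throughout. Drd5, the Gs-coupled subtype that predominates over Drd1 in hippocampus, had FPKM values of 2.35 for WT, 1.60 for PS19 and 2.99 for PS19 Zbp1+/-, from 128, 87 and 149 reads. Drd1 had 1.31, 0.797 and 1.15, and Drd2, the Gi/o-coupled autoreceptor, 2.32, 1.499 and 1.41. All 3 were lower in PS19 than in WT, by read ratios of 0.678 (0.511 to 0.898), 0.609 (0.419 to 0.875) and 0.646 (0.466 to 0.889) in that order. Drd2 alone of them was also lower in PS19 Zbp1+/- than in WT by an interval below 1, at 0.609 (0.433 to 0.851). Drd3 and Drd4, the other Gi/o-coupled subtypes, had at most 2 reads in any library, where no fold can be given. Markers of striatal projection neurons, which carry Drd1 and Drd2 densely, had a summed FPKM of 51.3 for WT, 43.3 for PS19 and 33.8 for PS19 Zbp1+/- over 8 genes. The 2 most abundant were Ppp1r1b, at 26.1, 25.2 and 15.2, and Penk, at 15.4, 11.9 and 10.8. Their part in the Drd1 and Drd2 values was not tested.

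Receptors were also grouped by G protein, with Htr5b placed beside its relative Htr5a. The Gi/o class had the lowest median between PS19 and WT, -0.36 over 9 of 14 members that passed, with 8 below 0. The Gq class had a median of -0.17 over 7 of 9 and the Gs class of -0.13 over 6 of 8. Between PS19 Zbp1+/- and PS19 the medians were 0.85 over 9 Gi/o, 0.34 over 8 Gq and 0.66 over 6 Gs members. The order of the classes changed under TPM, where the Gi/o median was 0.21 over 11 members and the Gs median 0.55 over 8, and with no filter on low values, where they were 0.13 and 0.51. Among the Gi/o members 4 were called higher, and 2 in each of the other classes. By transmitter, the adrenergic receptors had the highest median in that comparison, 1.11 over 6 members with 4 called, then the muscarinic at 0.90, the serotonin at 0.46 and the dopamine receptors at 0.26. With no filter the adrenergic median was 0.39, below the muscarinic 0.90, and the dopamine median -0.05. Between PS19 and WT all 4 transmitter medians were below 0, from -0.37 for dopamine to -0.10 for serotonin. Rescaling to TPM, which also let weaker genes pass, turned the adrenergic (0.07), serotonin (0.04) and Gs (0.13) medians of PS19 against WT above 0. Under it 8 adrenergic members passed in place of 5. Scaling by total reads, with 5 adrenergic members passing, kept these medians below 0, at -0.25, -0.07 and -0.11. With no filter the adrenergic median was 0.09 and the Gs median 0.01, and at 50 reads over both libraries the Gs median was 0.01.

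Markers of hippocampal regions and neighbouring tissue moved with some receptors. Thalamus and habenula markers had a summed FPKM of 15.0 for WT, 36.6 for PS19 and 8.89 for PS19 Zbp1+/- over 6 genes, and 3 of the 5 that passed were called higher in PS19 than in WT. The most abundant of them in PS19, Prkcd and Rora, had 8.15, 23.1 and 1.69, and 2.41, 6.60 and 2.05. Of the habenula markers of the list, Tac2 went the other way, at 2.10, 1.34 and 3.53 from 50, 32 and 77 reads. Gpr151, at 0.745, 0.673 and 0.851 from 21, 19 and 22 reads, passed the filter in no comparison. Adra1b and Chrm2 were also highest in PS19, and the part of thalamic tissue in their values was not tested.

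Markers of CA1 pyramidal neurons had a summed FPKM of 152, 107 and 282 over 6 genes. All 6 were lower in PS19 than in WT by sign, and 3 were called higher when PS19 Zbp1+/- was set against PS19. The most abundant was Mpped1 in WT and PS19, at 50.1 and 31.3 and then 96.3, and Fibcd1 in PS19 Zbp1+/-. Wfs1 was an exception, at 38.8, 27.1 and 28.0. The 6 markers had a median difference of 0.96 between PS19 Zbp1+/- and PS19, against 0.04 over all genes. Chrm4, Adra2c, Adra1d, Adrb1 and Chrm1 followed the order of the CA1 sum, lowest in PS19 and highest in PS19 Zbp1+/-. Adra2a and Htr5b had the same order. Htr5a, Htr3a, Htr2a and Chrm5 had it by value alone, as their read ratio intervals of PS19 over WT included 1. Drd5 had it with an interval of PS19 Zbp1+/- over WT that included 1. Other receptors, such as Htr1a, Chrm3 and Adra1b, did not have that order. The share of all genes in that order was not computed. CA3 and CA2 markers summed to 117, 104 and 95.3, but their members were mixed: 3 of 7 (Grik4, Amigo2 and Rgs14) were higher by sign in PS19 Zbp1+/- than in PS19 and 4 lower. Dentate granule markers summed to 72.2, 57.0 and 49.1. Of the 5 that passed, 4 were lower by sign in PS19 Zbp1+/- than in PS19, while 3 were higher in PS19 than in WT although the sum was lower, with C1ql2 at 51.0 and 34.0. Microglia markers summed to 178, 627 and 188, astrocyte markers to 615, 1504 and 720, and oligodendrocyte markers to 834, 1494 and 544. Each of these 3 sums was highest in PS19. GABAergic interneuron markers summed to 768, 555 and 740, a sum led by Sst (315, 201 and 257) and Cck (241, 143 and 292), while 5 of 9 were higher by sign in PS19 than in WT. Endothelial and mural markers summed to 64.8, 73.4 and 84.4, and 6 of 9 were lower by sign in PS19 Zbp1+/- than in PS19, with Cldn5 at 22.4, 19.1 and 38.1. The part of cell composition in the receptor values was not tested.

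**Figure D4:**
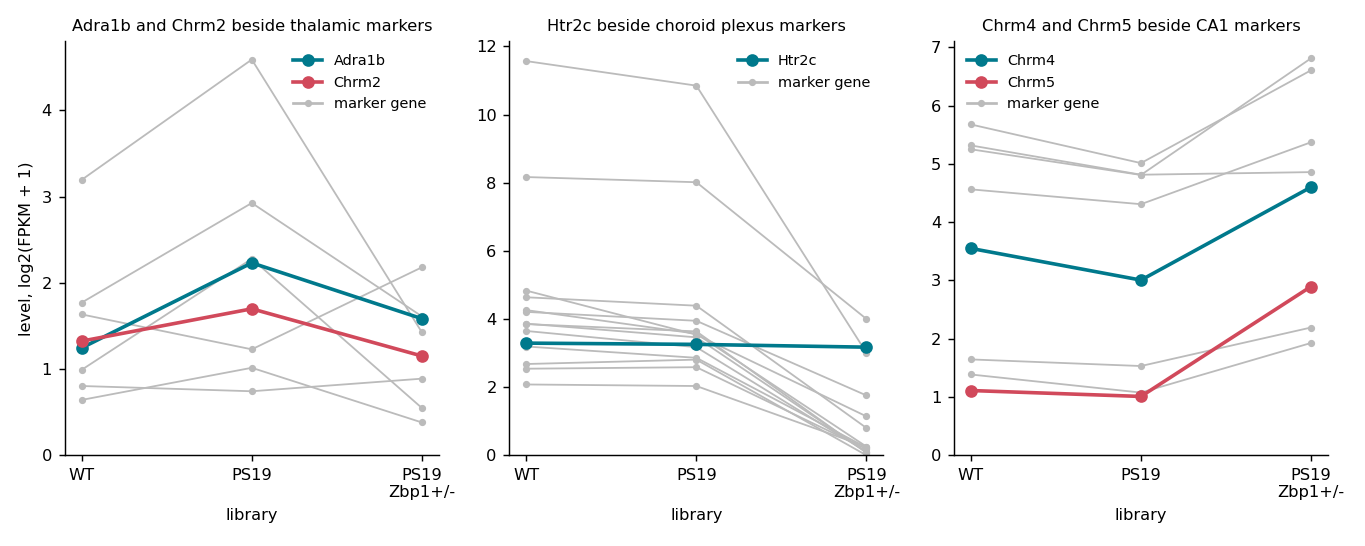
Level as log2(FPKM + 1) on the vertical axis in the 3 libraries on the horizontal axis for receptors (coloured) and marker genes (grey); lines join the values of a gene and stand for no time course. Htr2c stays near 8 FPKM while all 13 choroid plexus markers are lowest in PS19 Zbp1+/-.

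Most receptors called higher in PS19 Zbp1+/- were rich in GC. Adra1d, Adra2c, Htr6, Adrb1 and Adra2a had a transcript GC content of 65.4%, 65.5%, 63.1%, 58.8% and 58.6%, in the highest of 10 equal bins of all genes tested, and Chrm4 had 57.0%, in the next bin. Across the 24 receptors GC content and the difference between PS19 Zbp1+/- and PS19 had a Pearson r of 0.60, and across 12757 genes of 0.22. All points share the same 2 libraries, and genes are not independent replicates. The median difference of all genes went from -0.18 in the lowest bin of GC content to 0.31 in the highest, where 7.60% of genes were called higher. The 5 receptors in that bin had a median of 1.15. After the median of genes of like GC content and length was subtracted, 4 receptors stayed past the threshold: Chrm5 at 1.77, Chrm4 at 1.49, Htr5b at 1.40 and Adra2c at 1.22. Of 12757 genes 1.21% were then called higher and 5.90% lower. Htr6 was then at 0.97, Adra1d at 0.90, Adrb1 at 0.87 and Adra2a at 0.72.

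**Figure D5:**
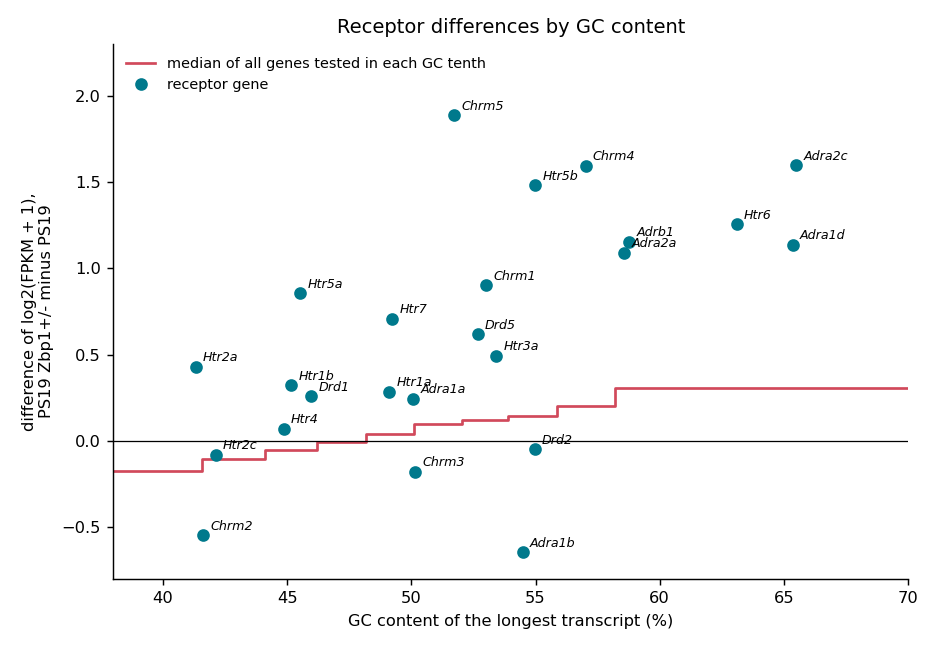
Difference of log2(FPKM + 1) between PS19 Zbp1+/- and PS19 (vertical axis) against transcript GC content in percent (horizontal axis) for the 24 receptors that passed the filter, with the median of all genes in each of 10 bins of GC content as a step line. The 8 receptors at 1.09 or more have a GC content of 51.7% or more.

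The gene models set limits on some values. Of the 33 receptors 16 have a single coding exon in GENCODE M21, among them all 5 muscarinic and the Adra2 genes. The table's lengths for Chrm4 (GRCm38 chromosome 2, 91927249 to 91928688, plus strand) and Chrm5 (chromosome 2, 112479171 to 112480769, minus strand) are 1440 and 1599 bases. These exceed the coding length by 3 bases, so reads from their untranslated exons were not counted. Levels of these 2 genes against other genes are therefore less certain than their ratios between libraries. The RefSeq start of Chrm4 lies upstream of the table's gene, and that of Chrm5 next to its coding exon.

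Exons of 7 receptors overlap another gene on the opposite strand, and strandedness is not given in the sources used here. The overlap covers 48.6% of Drd5 with Gm26560, 24.9% of Adrb3 with Gm45470, 18.0% of Htr1b with D430036J16Rik and 11.8% of Htr2b with Psmd1. For Adra1d, Chrm1 and Chrm2 it covers 7.74%, 5.07% and 2.35%. Gm45470 had 15, 13 and 50 reads in the 3 libraries beside the 7, 11 and 30 of Adrb3. How reads of the shared 24.9% were assigned is not known, and the part of Gm45470 in the Adrb3 reads was not tested. Gm26560 had 5, 5 and 10 reads beside Drd5, and Gm14285 had 46, 31 and 64 beside Adra1d.

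The enzymes and transporters of the transmitters were mostly near 0. Of the 14 genes of monoamine synthesis, storage and uptake, 3 passed the filter and none was called in any comparison. Slc29a4, a low-affinity monoamine transporter, had FPKM values of 18.9, 15.5 and 13.7. Slc18a2, the vesicular transporter, had 2.45, 1.75 and 1.41, and Ddc, the decarboxylase of serotonin and dopamine synthesis, 1.69, 2.42 and 1.10. Among the 6 breakdown genes, Aldh1a1, an aldehyde dehydrogenase, was the only one called, at 1.47 between PS19 and WT and -1.81 between PS19 Zbp1+/- and PS19. Maob, the glial monoamine oxidase, had a difference of -0.53 and Aldh1b1 of 0.42 in the latter. Of 7 cholinergic genes Prima1, the membrane anchor of acetylcholinesterase, was the only one called, at 1.21 and -1.68 from 28, 93 and 13 reads. Chat, which makes acetylcholine, had 4, 1 and 0 reads, and Lynx1, a modulator of nicotinic receptors, a difference of 0.37 between PS19 Zbp1+/- and PS19.

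Downstream of the receptors, most genes stayed within 1 log2 unit. Of 13 G protein alpha subunits 12 passed in each comparison. Gna15, the subunit of blood cells, was the only one called, at 1.05 between PS19 and WT, and its difference was -0.95 between PS19 Zbp1+/- and PS19. Gnas, the Gs subunit, had FPKM values of 11.0, 10.4 and 19.6, and differences of 0.85 from PS19 and 0.78 from WT in PS19 Zbp1+/-. Of 9 adenylyl cyclases that passed, Adcy7 was called higher in PS19 than in WT (1.23) and lower in PS19 Zbp1+/- than in PS19 (-1.03). Adcy3 was called higher in PS19 Zbp1+/- against PS19 (1.07) and WT (1.02), with FPKM values of 7.41, 7.10 and 16.1. Of the 4 phospholipase C beta genes Plcb4 was called lower in PS19 Zbp1+/- than in PS19, at -1.15. The list of receptor kinases, arrestins and RGS proteins held 18 symbols for 16 genes, as Grk2 and Grk3 also stood under older names. All 16 were found, and 15 passed in that comparison. Rgs16, which speeds the turn-off of Gi/o and Gq, was called lower, at -1.61. Grk2, the kinase that phosphorylates active beta receptors, had FPKM values of 47.4, 40.01 and 67.6, and a difference of 0.74 there. Median differences between PS19 Zbp1+/- and PS19 were 0.13 for the alpha subunits, 0.35 for the cyclases, -0.46 for the phospholipases and 0.30 for the last list, beside 0.04 over all genes.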

How the data were processed

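The series holds 3 mouse hippocampus RNA-seq libraries, 1 per genotype, made from TRIzol-extracted RNA with an NEB Next Ultra kit, per the labels' protocols. The authors deposited 1 table of FPKM values with gene lengths, positions and biotypes. The submitters' processing notes name Trim Galore 0.6.5, STAR 2.5.3a, featureCounts 2.0.4 and build mm39. Positions in the table are those of GRCm38 instead: 98.3% of 54409 gene IDs found in GENCODE M21 had the same start and end there. FPKM multiplied by gene length was a whole multiple of 1 step, within 0.01, in over 99.9% of values, which gave reads and implied library sizes of 17253480, 17287959 and 15826985. Receptors were chosen by name with earlier results of these data known, as were the 9 pathway and 11 marker lists, so no list is independent evidence. Named were the receptors, the genes with the largest differences of each pathway list, and the most abundant markers. The values of 1 receptor are not reported here. Differences used log2(FPKM + 1), a minimum FPKM of 1 in either library and a threshold of 1 log2 unit. No p-value was computed with 1 library per genotype. A ratio against 0 reads was set against a floor of 3 reads. The procedure was tested on simulated data for PS19 against WT over 54532 genes. Reads were recovered for 100% of genes, and 100% of 200 genes changed 4-fold were called, beside 3 of 12149 unchanged genes. Counts were drawn with counting error alone, and the changed genes had a mean FPKM of about 5 or more. These rates check the code and do not measure error between animals, or for weaker receptors and smaller changes. Alternatives were other pseudocounts, filters, scalings and thresholds. A correction for GC content and length (10 by 5 bins, longest GENCODE M21 transcript) was added after the data had been seen. Scripts ran in Python 3.11.15. Figures were drawn with matplotlib 3.10.9, intervals came from scipy 1.17.1, and tables were handled with pandas 2.3.3 over numpy 2.4.6. The genes Rgs9 and Rgs14 stand in a pathway list and in a marker list.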

Additional observations from a re-analysis of the deposited data

How the results depend on the processing

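No paired analysis was possible because each genotype has 1 library. Over the 6 settings that can move a single receptor's value, 384 of 426 values stayed within their counting interval, 42 moved beyond it, and none of the called ones changed sign. The number of expressed receptors stayed within 1.5 times of that reported under each minimum tried.

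Between PS19 and WT, 1 receptor (Adra1b) was called higher with a pseudocount of 0.1 or 0.5, under TPM or total-read scaling, with the median ratio set to 1, after the GC content and length correction and at 1.5-fold, where 2.33% to 6.34% of all genes were called higher. At 1.5-fold 1 (Adra2c) was lower, beside 2.71%. The median was -0.072 with no filter on low values and -0.079 after rescaling to TPM, which moved the median of all genes by 0.13.

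Between PS19 Zbp1+/- and PS19 the 8 higher receptors became 5 after rescaling to TPM or scaling by total reads, 4 after the GC content and length correction and 0 at 4-fold. The shares of all genes were 1.58%, 1.15%, 1.21% and 0.0783%. The 0 lower receptors became 2 after rescaling to TPM and 1 (Adra1b) at 1.5-fold, beside 13.6% and 12.1%. The median of 0.56 became 1.09 at a mean FPKM of at least 5, 0.28 with no filter, 0.71 with a pseudocount of 0.1, 0.27 under TPM and 0.41 with total reads.

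Between PS19 Zbp1+/- and WT the 3 higher receptors became 5 with a pseudocount of 0.1, 11 at 1.5-fold, 2 after rescaling to TPM, by total reads or at a mean FPKM of at least 5, and 0 at 4-fold. The shares of all genes were 2.33%, 6.71%, 1.44%, 0.628%, 1.14% and 0.0563%, against 1.07% as reported. The median of 0.47 became 0.36 after the GC content and length correction, 0.81 at a mean FPKM of at least 5, 0.26 with no filter, 0.60 with a pseudocount of 0.1, 0.33 under TPM and 0.37 with total reads. TPM and total reads moved the median of all genes by -0.16 and -0.14. Causes were not tested beyond the construction of each setting.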

Other observations

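Receptors of neighbouring families that the name rule left out were also read. Among the 4 histamine receptors, Hrh3, the Gi/o-coupled autoreceptor of histamine neurons that is also carried by forebrain neurons, had FPKM values of 19.97 for WT, 18.3 for PS19 and 58.4 for PS19 Zbp1+/-, from 1084, 995 and 2906 reads. Its difference was 1.62 from PS19 and 1.501 from WT in PS19 Zbp1+/-, and -0.12 between PS19 and WT. Hrh1, Gq-coupled, had 1.51, 1.21 and 2.66, and Hrh2, Gs-coupled, 0.801, 1.37 and 1.63, both highest in PS19 Zbp1+/-. Hrh4, a receptor of blood cells, had 2, 0 and 0 reads.

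Of the 16 nicotinic subunits, the channels through which acetylcholine acts directly, 5 passed the filter. Chrna7, which forms the fast homomeric channel of hippocampal interneurons, had FPKM values of 3.80 for WT, 5.21 for PS19 and 10.4 for PS19 Zbp1+/-, and was called higher in PS19 Zbp1+/- than in WT at 1.25. Chrna4, the partner of Chrnb2 in the main high-affinity channel, had 4.29, 7.16 and 6.82, higher in both PS19 libraries than in WT, and Chrnb2 had 7.19, 8.36 and 10.3. Chrnb1, a muscle subunit, had 1.37, 0.937 and 1.12, and Chrna5, an accessory subunit, 1.26, 1.22 and 1.44.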
